A study of Mus musculus with 24 samples.

Results

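Immediate early genes were described in mammary glands of aged transgenic mice through 10 genes chosen by symbol: Fos, Fosb, Jun, Junb, Egr1, Ier2, Nr4a1, Dusp1, Klf4 and Zfp36. Each symbol matched 1 row of the deposited table, so the set made up 10 of its 55487 genes. RNA of the whole gland was sequenced from 24 mice of 2 lines, with genotypes MMTV-rtTA/tet-op-Esr1, which overexpresses oestrogen receptor alpha, and MMTV-rtTA/tet-op-CYP19A1, which overexpresses aromatase, the enzyme that makes oestrogens. The study asked how the glands of the lines differ during reproductive senescence and whether tamoxifen, an oestrogen receptor modulator, or letrozole, an aromatase inhibitor, acts differently in them. Each line had 4 groups of 3 mice: 18 months old after 6 months of transgene induction, 20 months old after 8 months of induction without a drug, and 20 months old after 8 months of induction with a drug pellet under the skin during the final 2 months. The tamoxifen pellet released 25 mg and the letrozole pellet 2.5 mg, each over 60 days. All mice carried a transgene driven through the MMTV promoter, which is active mainly in mammary epithelium, and no mice without a transgene were analysed here. The 20-month mice without a drug are called untreated here: the labels list no agent for them, but their descriptions carry the tag PLA, which is not explained, so whether they bore a pellet without a drug is not known. Their transgene was induced too, so untreated means without tamoxifen or letrozole. The descriptions of the 18-month mice carry the tag Doxy, which reads as doxycycline for the induction. Those of the 20-month mice name no inducing agent. The samples of a group had different animal numbers, so the spread within a group was that between mice.

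Immediate early genes are transcribed within minutes of a growth factor, hormone, stretch or stress signal, without new protein synthesis, through factors that already sit on their promoters, such as SRF with its ternary complex partners and CREB. Many encode transcription factors, and others encode proteins that switch the same signals off or destroy the short-lived messenger RNAs. Handling and dissociation of a tissue also induce them, and in the mammary gland they are found in epithelium, stroma, vessels and muscle alike.

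Levels are given in TPM (a share of all transcripts in the library, corrected for transcript length), and differences on the log2(TPM + 1) scale with the standard error of a limma fit over all 24 libraries. The threshold was an adjusted p of 0.05 (Benjamini-Hochberg, over the 19325 genes tested in each comparison), and all 10 genes entered these tests. Depth per library cannot be read from TPM and is unknown. Between 14410 and 17684 genes reached 1 TPM per library. The untreated 20-month Esr1 mouse with replicate number 2 stood apart, because gene models of ribosomal RNA took 17.4% of its TPM against at most 2.02% in the other libraries. It was also the lowest of the 24 libraries for Fos, Jun, Dusp1, Klf4 and Zfp36. All 11 luminal epithelial markers listed for the gland were above 0 in every library, with summed levels of 81.4 to 879 TPM, and the 12 skeletal muscle markers summed to 22.9 to 33826 TPM. Esr1 itself ranged from 6.98 to 17.4 TPM in the Esr1 line and from 12.2 to 19.2 TPM in the CYP19A1 line, and the mouse gene Cyp19a1 reached at most 0.27 TPM, so these values did not separate the lines, which are named by their labels. Library numbers in the sample descriptions run from 1 to 8, and the labels do not give their meaning. They were read as 3 sets in which each number occurs once: 1 set holds all 6 mice at 18 months and the first replicate of both untreated 20-month groups, and the other 2 hold 8 Esr1 and 8 CYP19A1 mice at 20 months. The numbers alone do not fix these sets, because in each line 1 drug-treated library carries the same number as that first replicate. On this reading age and line are almost wholly tied to the set, and at 20 months only the 2 first replicates separate line from set. In RNA of a whole gland, fewer cells of a type and less RNA per cell cannot be told apart.

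The promoters of 5 of the genes are shown first. Nr4a1, Dusp1, Klf4 and Zfp36 are the 4 that passed together under letrozole in the Esr1 line, and Fosb is the gene with the widest range of levels. Promoter windows of 300 bases, from 250 bases before to 50 bases after the start of transcription, were found for 8 of the 10 genes in RefSeq (GRCm38.p6, the assembly also called mm10), and are printed 5′ to 3′ on the strand of the gene. Nr4a1 lies on the plus strand with its window at chr15:101266596-101266895, at a start site inside the annotated gene. Dusp1 lies on the minus strand with its window at chr17:26508423-26508722. Klf4 lies on the minus strand with its window at chr4:55532426-55532725. Zfp36 lies on the minus strand with its window at chr7:28379179-28379478. Fosb lies on the minus strand with its window at chr7:19309996-19310295. Capitals mark matches, on either strand, to the cAMP response element TGACGTCA, its core TGACG, the EGR factor site GCGNGGGCG, the CArG box bound by SRF, and the TATA box TATAAA.
Nr4a1: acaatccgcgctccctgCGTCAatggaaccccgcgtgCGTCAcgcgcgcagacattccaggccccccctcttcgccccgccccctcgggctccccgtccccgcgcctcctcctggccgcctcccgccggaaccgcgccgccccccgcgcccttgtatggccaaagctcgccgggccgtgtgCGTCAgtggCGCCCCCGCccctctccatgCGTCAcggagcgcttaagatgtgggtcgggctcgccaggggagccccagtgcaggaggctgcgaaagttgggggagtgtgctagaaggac
Dusp1: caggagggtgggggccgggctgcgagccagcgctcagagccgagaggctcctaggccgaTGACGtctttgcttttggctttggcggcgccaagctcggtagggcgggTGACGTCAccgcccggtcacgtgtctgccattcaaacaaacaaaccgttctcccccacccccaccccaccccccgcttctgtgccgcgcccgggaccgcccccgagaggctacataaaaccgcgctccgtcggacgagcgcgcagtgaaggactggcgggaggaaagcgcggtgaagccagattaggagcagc
Klf4: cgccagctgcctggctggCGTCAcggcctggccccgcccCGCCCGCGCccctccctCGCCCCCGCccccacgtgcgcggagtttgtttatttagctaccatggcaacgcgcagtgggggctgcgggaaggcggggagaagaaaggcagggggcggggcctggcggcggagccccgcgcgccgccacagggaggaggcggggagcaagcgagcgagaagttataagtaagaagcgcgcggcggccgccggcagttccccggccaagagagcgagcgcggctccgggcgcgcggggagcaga
Zfp36: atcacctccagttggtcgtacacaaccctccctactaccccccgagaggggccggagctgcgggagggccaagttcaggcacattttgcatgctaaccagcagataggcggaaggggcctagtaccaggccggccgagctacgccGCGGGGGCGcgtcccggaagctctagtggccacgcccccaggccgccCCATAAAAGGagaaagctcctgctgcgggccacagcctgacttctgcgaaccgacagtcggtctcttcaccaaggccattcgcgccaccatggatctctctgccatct
Fosb: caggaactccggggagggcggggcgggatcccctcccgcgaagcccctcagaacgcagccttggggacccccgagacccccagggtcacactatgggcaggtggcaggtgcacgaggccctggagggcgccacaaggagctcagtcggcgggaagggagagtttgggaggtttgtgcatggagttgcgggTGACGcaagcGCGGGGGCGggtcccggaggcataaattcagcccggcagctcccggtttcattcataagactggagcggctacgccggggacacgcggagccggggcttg
The core TGACG was present in 6 of the 8 windows (Dusp1, Fos, Fosb, Junb, Klf4 and Nr4a1) against 20.8% of the 32851 promoters in the table. Nr4a1 held it 4 times, at 233, 213, 69 and 40 bases before the start. The full element TGACGTCA, which contains the core on both strands, was in the Dusp1 window 143 bases before the start and in 1.79% of all promoters. GCGNGGGCG was in 4 of the 8 windows (Fosb, Klf4, Nr4a1 and Zfp36) against 5.55% of all promoters. The CArG box was in the Zfp36 window, 58 bases before the start, and in 1.63% of all promoters. Bases outside these windows were not searched, so a window without a match does not mean a gene without a site. TATAAA was in the windows of Fos, 33 bases before the start, and Junb, against 13.6% of all promoters. The Junb match does not lie before the start but begins at position 1, the start itself. The AP-1 site TGANTCA was in none of the 8 windows and in 7.81% of all promoters, which says only that these letters are not in these windows. These matches are a description of the letters, and member promoters are rich in G and C (58.7% in Fos to 74.3% in Klf4, against a median of 52.7%).

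At the level of the whole set, the 10 genes summed to between 54.3 TPM, in the ribosomal RNA-rich library, and 116.4 TPM, with a median of 100.9 TPM. Jun, Dusp1 and Junb were the most abundant, with medians over the 24 libraries of 17.6, 17.7 and 14.3 TPM, and Fosb the least, at 0.35 TPM. Mice of 1 group varied more in most of these genes than in the typical gene. The standard deviation within groups was 0.32 (log2) at the median of the 10 genes and 0.25 at the median of all genes tested, from 0.22 for Zfp36 to 0.45 for Fos and 0.57 for Fosb.

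**Figure D1:**
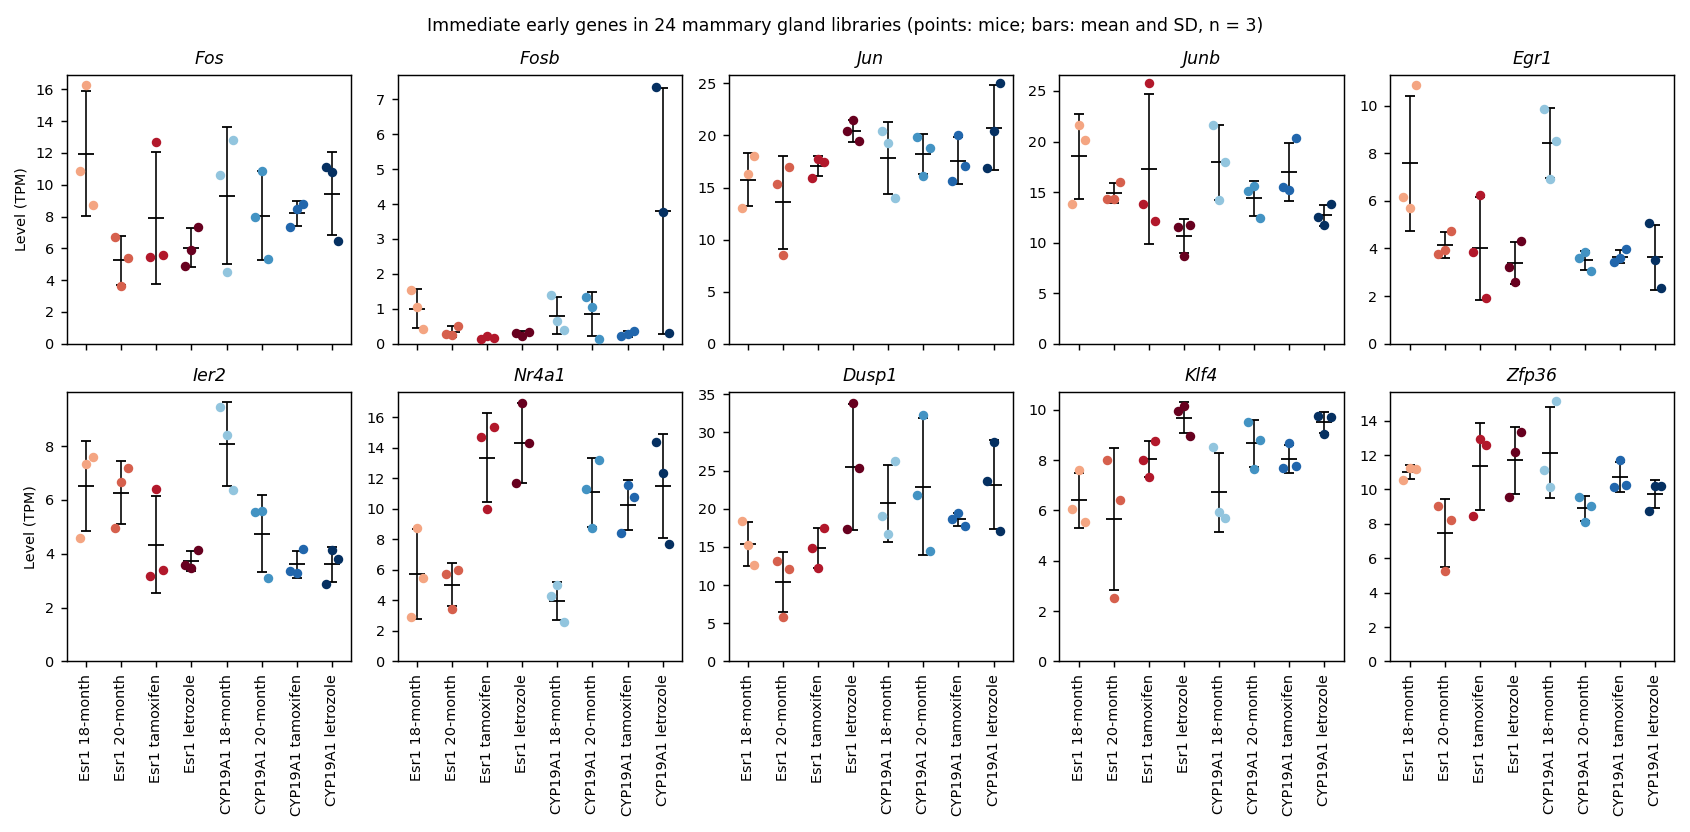
Level of each of the 10 genes (vertical axis, TPM, from 0) in the 8 groups (horizontal axis). Points are single mice and bars the mean and SD of 3 mice. Egr1 is high in both 18-month groups (5.71 to 10.9 TPM) and Nr4a1 low in them (2.61 to 8.76 TPM), and Fosb is high in 2 of the 3 CYP19A1 mice under letrozole.

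The AP-1 factors Fos, Fosb, Jun and Junb encode leucine zipper proteins that bind DNA as pairs, Fos proteins only with a Jun partner. Fos in the Esr1 line stood at 10.9, 16.3 and 8.71 TPM at 18 months, 6.71, 3.62 and 5.38 TPM at 20 months untreated, 5.46, 12.7 and 5.60 TPM under tamoxifen, and 4.90, 5.90 and 7.33 TPM under letrozole. Fos in the CYP19A1 line stood at 10.6, 4.51 and 12.8 TPM at 18 months, 7.99, 10.9 and 5.31 TPM at 20 months untreated, 7.33, 8.46 and 8.81 TPM under tamoxifen, and 11.1, 10.8 and 6.43 TPM under letrozole. Fos was highest in 18-month Esr1 mice (12.0 ± 3.91 TPM, SD, n = 3) and lowest in untreated 20-month Esr1 mice (5.24 ± 1.55 TPM), and those groups did not overlap, while the 4 CYP19A1 groups overlapped one another.

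Fosb, the least abundant of the set, also yields a long-lived truncated protein, which values per gene do not separate. Fosb in the Esr1 line stood at 1.53, 1.05 and 0.43 TPM at 18 months, 0.27, 0.24 and 0.52 TPM at 20 months untreated, 0.13, 0.21 and 0.15 TPM under tamoxifen, and 0.32, 0.21 and 0.34 TPM under letrozole. Fosb in the CYP19A1 line stood at 1.39, 0.64 and 0.38 TPM at 18 months, 1.33, 1.06 and 0.14 TPM at 20 months untreated, 0.21, 0.27 and 0.37 TPM under tamoxifen, and 7.35, 3.76 and 0.30 TPM under letrozole. Only the letrozole-treated CYP19A1 mice with replicate numbers 1 and 2 exceeded 1.53 TPM, and the third mouse of their group was at 0.30 TPM. The highest library was 56.5 times the lowest, against 2.88 to 6.48 times for the other 9 genes.

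Jun is the common partner of Fos proteins, and Junb a weaker activator that can replace or oppose it. Jun in the Esr1 line stood at 12.99, 16.3 and 18.0 TPM at 18 months, 15.4, 8.52 and 16.9 TPM at 20 months untreated, 16.0, 17.8 and 17.4 TPM under tamoxifen, and 20.4, 21.5 and 19.4 TPM under letrozole. Jun in the CYP19A1 line stood at 20.4, 19.2 and 13.95 TPM at 18 months, 19.9, 16.1 and 18.8 TPM at 20 months untreated, 15.6, 20.1 and 17.1 TPM under tamoxifen, and 16.9, 20.4 and 25.0 TPM under letrozole. Jun varied little, with group means from 13.6 ± 4.47 TPM in untreated 20-month Esr1 mice to 20.8 ± 4.09 TPM in letrozole-treated CYP19A1 mice. Junb in the Esr1 line stood at 13.8, 21.7 and 20.2 TPM at 18 months, 14.3, 14.3 and 16.0 TPM at 20 months untreated, 13.9, 25.8 and 12.2 TPM under tamoxifen, and 11.5, 8.68 and 11.7 TPM under letrozole. Junb in the CYP19A1 line stood at 21.6, 14.2 and 18.0 TPM at 18 months, 15.1, 15.6 and 12.4 TPM at 20 months untreated, 15.5, 15.2 and 20.3 TPM under tamoxifen, and 12.5, 11.8 and 13.8 TPM under letrozole. Junb was lowest in letrozole-treated Esr1 mice (10.6 ± 1.70 TPM), all 3 of which lay below all 3 untreated Esr1 mice.

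Egr1 encodes a zinc finger factor that relays mitogenic and injury signals. Egr1 in the Esr1 line stood at 6.16, 5.71 and 10.9 TPM at 18 months, 3.75, 3.93 and 4.75 TPM at 20 months untreated, 3.86, 6.23 and 1.91 TPM under tamoxifen, and 3.22, 2.60 and 4.33 TPM under letrozole. Egr1 in the CYP19A1 line stood at 9.84, 6.93 and 8.53 TPM at 18 months, 3.61, 3.84 and 3.06 TPM at 20 months untreated, 3.43, 3.59 and 3.96 TPM under tamoxifen, and 5.05, 3.53 and 2.33 TPM under letrozole. All 6 mice at 18 months were at 5.71 TPM or more, and 1 of the 18 mice at 20 months, a tamoxifen-treated Esr1 mouse at 6.23 TPM, reached that level.

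Ier2 encodes a small early response protein of the nucleus. Ier2 in the Esr1 line stood at 4.59, 7.35 and 7.58 TPM at 18 months, 4.97, 6.66 and 7.18 TPM at 20 months untreated, 3.19, 6.40 and 3.39 TPM under tamoxifen, and 3.57, 3.46 and 4.15 TPM under letrozole. Ier2 in the CYP19A1 line stood at 9.45, 8.41 and 6.38 TPM at 18 months, 5.55, 5.58 and 3.10 TPM at 20 months untreated, 3.36, 3.29 and 4.19 TPM under tamoxifen, and 2.89, 4.14 and 3.79 TPM under letrozole. Ier2 was highest in 18-month CYP19A1 mice (8.08 ± 1.56 TPM) and lowest in tamoxifen-treated and letrozole-treated CYP19A1 mice (3.61 ± 0.50 and 3.61 ± 0.64 TPM). In the Esr1 line the untreated 20-month mice (6.27 ± 1.16 TPM) overlapped the 18-month mice (6.51 ± 1.66 TPM).

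Nr4a1 encodes the orphan nuclear receptor NUR77, which acts in stress responses, metabolism and muscle. Nr4a1 in the Esr1 line stood at 2.88, 8.76 and 5.47 TPM at 18 months, 5.69, 3.40 and 6.00 TPM at 20 months untreated, 14.7, 10.01 and 15.3 TPM under tamoxifen, and 11.7, 16.9 and 14.3 TPM under letrozole. Nr4a1 in the CYP19A1 line stood at 4.25, 5.02 and 2.61 TPM at 18 months, 11.3, 8.72 and 13.2 TPM at 20 months untreated, 8.39, 11.5 and 10.8 TPM under tamoxifen, and 14.3, 12.4 and 7.71 TPM under letrozole. Both 18-month groups and the untreated 20-month Esr1 mice were low (means of 3.96 to 5.70 TPM), and the other 5 groups were high (means of 10.2 to 14.3 TPM).

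Klf4 encodes a zinc finger factor of epithelial differentiation and vessel walls. Klf4 in the Esr1 line stood at 6.05, 7.63 and 5.54 TPM at 18 months, 8.01, 2.52 and 6.42 TPM at 20 months untreated, 8.02, 7.34 and 8.76 TPM under tamoxifen, and 9.95, 10.1 and 8.98 TPM under letrozole. Klf4 in the CYP19A1 line stood at 8.54, 5.94 and 5.71 TPM at 18 months, 9.53, 7.65 and 8.82 TPM at 20 months untreated, 7.69, 8.69 and 7.75 TPM under tamoxifen, and 9.76, 9.04 and 9.70 TPM under letrozole. Klf4 was highest in letrozole-treated mice of the Esr1 line (9.69 ± 0.62 TPM) and of the CYP19A1 line (9.50 ± 0.40 TPM). The widest spread was among untreated 20-month Esr1 mice (5.65 ± 2.83 TPM), which held the ribosomal RNA-rich library at 2.52 TPM.

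The last pair act as brakes: Dusp1 encodes a phosphatase that inactivates MAP kinases, and Zfp36 the protein tristetraprolin, which targets AU-rich messenger RNAs for decay. Dusp1 in the Esr1 line stood at 18.3, 15.2 and 12.6 TPM at 18 months, 13.2, 5.85 and 12.1 TPM at 20 months untreated, 14.8, 12.2 and 17.5 TPM under tamoxifen, and 17.3, 33.9 and 25.3 TPM under letrozole. Dusp1 in the CYP19A1 line stood at 19.1, 16.7 and 26.3 TPM at 18 months, 21.9, 32.3 and 14.4 TPM at 20 months untreated, 18.6, 19.4 and 17.8 TPM under tamoxifen, and 23.7, 28.7 and 17.0 TPM under letrozole. The letrozole-treated Esr1 mice (25.5 ± 8.27 TPM) all lay above the untreated ones (10.4 ± 3.95 TPM), and the untreated CYP19A1 mice (22.8 ± 8.97 TPM) also lay above those untreated Esr1 mice. Zfp36 in the Esr1 line stood at 10.6, 11.3 and 11.2 TPM at 18 months, 9.01, 5.26 and 8.20 TPM at 20 months untreated, 8.45, 12.96 and 12.6 TPM under tamoxifen, and 9.55, 12.2 and 13.4 TPM under letrozole. Zfp36 in the CYP19A1 line stood at 11.2, 10.1 and 15.2 TPM at 18 months, 9.55, 8.13 and 9.01 TPM at 20 months untreated, 10.2, 11.7 and 10.2 TPM under tamoxifen, and 8.77, 10.2 and 10.2 TPM under letrozole. Zfp36 had the narrowest range of the set, at 2.88 times from the lowest to the highest library.

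Letrozole in the Esr1 line gave the largest number of calls. Nr4a1, Dusp1, Klf4 and Zfp36 rose, 4 of the 10 genes, where 8.65% of all genes tested passed (550 higher and 1122 lower). The balance over all genes turned with 1 library: without the untreated Esr1 mouse with replicate number 1, 3438 passed, 2210 of them higher, and with median-ratio scaling, which sets the middle of all genes level, 4111 passed, 1822 of them higher. Nr4a1 was 2.56-fold higher (log2 difference 1.36 ± 0.29, adjusted p = 0.010), from 5.03 ± 1.42 to 14.3 ± 2.61 TPM. Dusp1 was 2.37-fold higher (1.24 ± 0.30, adjusted p = 0.016). Klf4 was 1.73-fold higher (0.79 ± 0.23, adjusted p = 0.038) and Zfp36 1.51-fold higher (0.60 ± 0.18, adjusted p = 0.047). None of these 4 genes overlapped between the groups. Jun (0.61 ± 0.20, adjusted p = 0.066) and Ier2 (-0.61 ± 0.23, adjusted p = 0.10) did not pass, although neither overlapped between the groups, nor did Junb. In all, 7 of the 10 genes did not overlap, against 27.6% of all genes tested. The median difference of the 10 was 0.39, against -0.01 over all genes tested.

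These calls depended on the ribosomal RNA-rich untreated library. Without it, none of the 4 passed: the differences were 1.15 for Nr4a1 (adjusted p = 0.051), 0.91 for Dusp1 (0.076), 0.39 for Klf4 (0.13) and 0.39 for Zfp36 (0.17). None passed without the letrozole-treated mouse with replicate number 2 either, where Nr4a1 differed by 1.24 (adjusted p = 0.063) and Dusp1 by 1.02 (0.096). Cell type markers moved in the same comparison: 6 of 11 luminal epithelial markers fell, with summed levels of 525 to 670 TPM untreated and 151 to 221 TPM under letrozole. Of 9 T and NK cell markers, 4 fell, from summed levels of 46.0 to 47.1 TPM to 12.6 to 26.6 TPM, and their part in the result was not tested. None of the 12 skeletal muscle markers passed, though their summed level was 6312 to 20316 TPM untreated and 29003 to 32106 TPM under letrozole. White adipocyte markers had a median difference of 1.27, beside 1.29 for muscle, and 1 of 11 was higher. Their summed levels were 2000 to 11955 TPM untreated and 11103 to 12487 TPM under letrozole, and their part in the result was not tested. With the mean log2 levels (scores) of the muscle and luminal markers as covariates, the difference of Nr4a1 was 0.62 (adjusted p = 0.35), that of Dusp1 1.02 (0.32), that of Klf4 0.59 (0.44) and that of Zfp36 0.80 (0.22), and in that fit 0 of all genes tested passed.

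Among related genes in that comparison, Klf2, a factor of vessel lining induced by flow, rose (0.82 ± 0.21, adjusted p = 0.022), 1 of 9 other early transcription factors tested. Dusp4, a second MAP kinase phosphatase, fell by 1.93 ± 0.30 (adjusted p = 0.0022), the 1 of 20 early feedback and effector genes that passed. Hspb1, a small heat shock protein abundant in muscle, rose (0.70 ± 0.21, adjusted p = 0.040), 1 of 11 heat shock genes. No gene passed among 10 tested AP-1 relatives, with a median difference of -0.11, or among 14 upstream regulators, with a median of 0.02.

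Tamoxifen in the Esr1 line raised Nr4a1 and no other of the 10 genes, where 1.55% of all genes tested passed. Nr4a1 was 2.39-fold higher (1.26 ± 0.29, adjusted p = 0.039) at 13.3 ± 2.90 TPM, with no overlap. Fosb, at very low levels, did not overlap either but was lower under tamoxifen (0.16 ± 0.04 against 0.34 ± 0.15 TPM, limma adjusted p = 0.85). That made 2 of the 10 genes without overlap, against 14.4% of all genes tested. Zfp36 (0.55 ± 0.18, adjusted p = 0.12), Klf4 (0.55 ± 0.23, adjusted p = 0.21) and Ier2 (-0.49 ± 0.23, adjusted p = 0.27) had unadjusted p of 0.0075, 0.028 and 0.049. Nr4a1 did not pass without the ribosomal RNA-rich library (1.05, adjusted p = 0.13), without the tamoxifen-treated mouse with replicate number 1 (1.18, 0.10) or without the one with number 3 (1.15, 0.17). With muscle and luminal scores as covariates it did pass, at 0.97 (adjusted p = 0.011), as did 1172 of all genes tested, against 299 without them. The tamoxifen and letrozole comparisons share the same 3 untreated mice, so their values are not independent. Under tamoxifen none of 11 luminal and none of 12 muscle markers passed, with summed levels of 289 to 637 and 22519 to 31507 TPM, although all 3 treated mice lay above the untreated ones (6312 to 20316 TPM) in the muscle sum. Of the 9 T and NK cell markers 1 was lower, with a median difference of -0.94 and summed levels of 46.0 to 47.1 TPM untreated and 14.8 to 24 TPM under tamoxifen, which did not overlap, and their part in the result was not tested. No AP-1 relative, other early transcription factor, early feedback or effector gene, upstream regulator or heat shock gene passed. Between the drugs in the Esr1 line none of the 10 passed, at 0.129% of all genes tested, and 2 had unadjusted p under 0.05: Junb (0.59 ± 0.22 higher under tamoxifen, adjusted p = 0.49) and Dusp1 (-0.71 ± 0.30, adjusted p = 0.57).

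In the CYP19A1 line no gene of the set passed under either drug. Under tamoxifen 0.16% of all genes tested passed, and none of the 10 had an unadjusted p under 0.05. Under letrozole 0.0207% of all genes tested passed. Fosb was the gene with an unadjusted p under 0.05 there (1.08 ± 0.43, unadjusted p of 0.021, adjusted p = 1), carried by 2 of the 3 mice. Between the drugs, 0.248% of all genes tested passed and none of the 10 did. Fosb was again the exception at an unadjusted p of 0.0020 (-1.54 ± 0.43, adjusted p = 0.22). It passed when the letrozole-treated mouse at 0.30 TPM, the lowest of its group, was left out. Nr4a1, already at 11.1 ± 2.23 TPM in untreated CYP19A1 mice, was at 10.2 ± 1.64 TPM under tamoxifen and 11.5 ± 3.40 TPM under letrozole. No related gene passed in these 3 comparisons. Under letrozole the smallest p among them were those of Hspa1b, a stress-induced chaperone (-0.72 ± 0.25, adjusted p = 0.95), and Dusp4 (-0.80 ± 0.30, adjusted p = 1), and under tamoxifen that of Klf6, a zinc finger relative of Klf4 (0.45 ± 0.22, adjusted p = 1).

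Whether a drug acted differently in the lines was tested as an interaction, the CYP19A1 effect minus the Esr1 effect. No gene of the set passed for letrozole or for tamoxifen, and 0% of all genes tested passed in either. Nr4a1 had the smallest p in both: -1.33 ± 0.42 for letrozole (unadjusted p = 0.0045, adjusted p = 0.31) and -1.35 ± 0.42 for tamoxifen (unadjusted p = 0.0040, adjusted p = 0.32). Dusp1 followed for letrozole (-1.18 ± 0.42, unadjusted p = 0.011, adjusted p = 0.34). The calls in the Esr1 line and their lack in the CYP19A1 line are therefore not shown to differ.

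**Figure D2:**
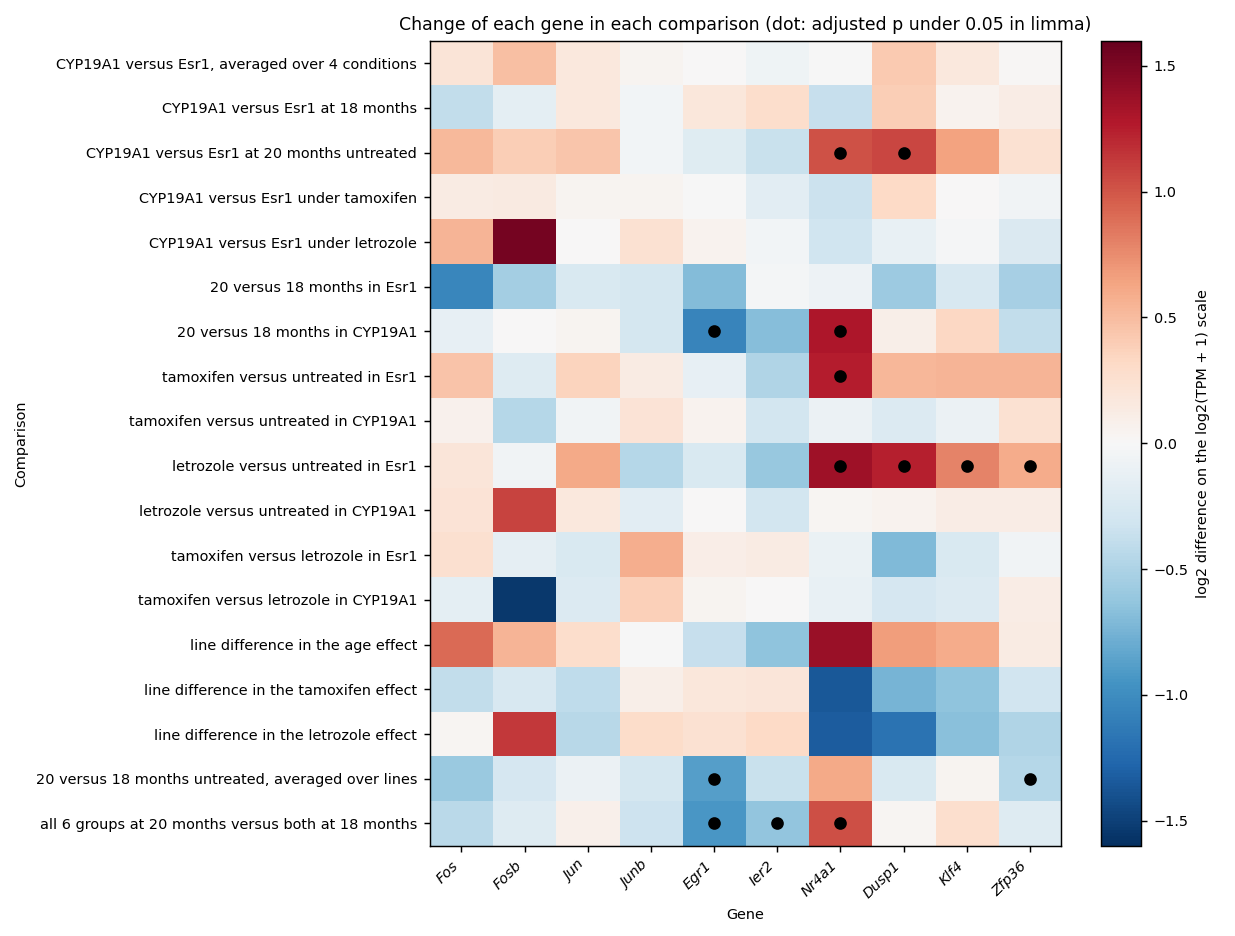
Difference of each gene (horizontal axis) in each of 18 comparisons (vertical axis), coloured by the log2 difference on the log2(TPM + 1) scale, red for higher in the first-named group. Dots mark the 14 differences that passed, and Nr4a1 holds 5 of them, each higher.

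Untreated at 20 months, Nr4a1 and Dusp1 were higher in the CYP19A1 line than in the Esr1 line. Of all genes tested 5.27% passed. Nr4a1 stood at 11.1 ± 2.23 against 5.03 ± 1.42 TPM (1.01 ± 0.29, adjusted p = 0.049), and Dusp1 at 22.8 ± 8.97 against 10.4 ± 3.95 TPM (1.07 ± 0.30, adjusted p = 0.041). Neither overlapped, while 21.6% of all genes tested did not overlap. Klf4 (0.64 ± 0.23, adjusted p = 0.11) and Jun (0.45 ± 0.20, adjusted p = 0.20) did not pass. This comparison uses the same untreated Esr1 mice as the drug comparisons, and without the ribosomal RNA-rich library Nr4a1 differed by 0.80 (adjusted p = 0.16) and Dusp1 by 0.74 (0.16). Neither passed without the untreated CYP19A1 mouse with replicate number 1 or without the one with number 2, where the differences of Dusp1 were 1.06 (adjusted p = 0.098) and 0.79 (0.16). Nr4a1 also did not pass without the untreated Esr1 mouse with number 3 (1.14, adjusted p = 0.057) or the untreated CYP19A1 mouse with number 3 (0.89, 0.22). In each group 2 of the 3 mice belong to a library-number set that holds 1 line only, and with the set as a factor neither passed: Nr4a1 differed by 0.88 (adjusted p = 0.78) and Dusp1 by 0.69 (0.87), while the number of all genes that passed went from 1019 to 94. With muscle and luminal scores as covariates both passed, at 0.75 (adjusted p = 0.027) and 1.05 (0.038), as did 1832 of all genes. Of the T and NK cell markers 5 of 9 were lower in the CYP19A1 mice, at summed levels of 9.64 to 21.0 TPM against 46.0 to 47.1 TPM, and 1 of 11 luminal markers was lower; their part was not tested. Of 11 heat shock genes 3 were higher: Hspa8 (1.53 ± 0.28, adjusted p = 0.0033), Hspa1b (0.97 ± 0.25, 0.027) and Hspb1 (0.81 ± 0.21, 0.028), a constitutive chaperone, a stress-induced chaperone and a small heat shock protein. Hspa8, like Hspe1 and Hsp90aa1, can share reads with processed copies, so its value is uncertain.

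In the other line comparisons none of the 10 passed. Averaged over the 4 conditions 7.27% of all genes tested passed (1404 genes, and 101 with the library-number set as a factor), and Dusp1 (0.42 ± 0.15, adjusted p = 0.11) and Fosb (0.48 ± 0.22, adjusted p = 0.23) had unadjusted p of 0.011 and 0.038. Dusp1 passed there without the untreated CYP19A1 mouse with number 3, and Fosb without the letrozole-treated CYP19A1 mouse with number 3. Each of these mice was the lowest of its group for that gene, so leaving it out had to raise the difference. For Nr4a1 the averaged difference was 0.00, with a 95% interval from -0.31 to 0.30, and for Egr1 0.01, with an interval from -0.28 to 0.29. At 18 months 1.36% of all genes tested passed and under tamoxifen 1.01%, and none of the 10 had an unadjusted p under 0.05 in either. Under letrozole 0.906% passed, and Fosb (1.53 ± 0.43, unadjusted p = 0.0021) had an adjusted p of 0.14. Among related genes, Hspa8 was higher in CYP19A1 mice at 18 months (1.88 ± 0.28, adjusted p = 0.00045), under tamoxifen (1.43 ± 0.28, 0.0091) and on average (1.43 ± 0.14, 4.9e-07). On average Nfil3, a leucine zipper factor, was also higher (0.48 ± 0.11, adjusted p = 0.0082), and Nr4a2, a relative of Nr4a1, was lower (-0.32 ± 0.09, 0.028), as was Hspe1, a mitochondrial chaperone (-0.27 ± 0.07, 0.021).

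Between 18 and 20 months in the CYP19A1 line Egr1 fell and Nr4a1 rose. In this and every other comparison by age, induction lasted 6 months in the younger mice and 8 months in the older ones. Age and induction time therefore cannot be told apart. In this comparison 9.45% of all genes tested passed, and the median gene differed by -0.23. Egr1 went from 8.43 ± 1.46 to 3.50 ± 0.40 TPM (fell by 1.06 ± 0.27, adjusted p = 0.025), and Nr4a1 from 3.96 ± 1.23 to 11.1 ± 2.23 TPM (1.297 ± 0.294, adjusted p = 0.017), each with no overlap. Ier2 (-0.68 ± 0.23, adjusted p = 0.066) and Zfp36 (-0.39 ± 0.18, adjusted p = 0.16) did not pass and did not overlap either. That made 4 of 10 genes without overlap, against 41.3% of all genes tested. Median-ratio scaling, after which the median gene differed by -0.02, gave Egr1 -0.83 (adjusted p = 0.070) and Nr4a1 1.51 (0.0031). The same scaling turned the split of all calls from 581 higher and 1246 lower to 1335 higher of 1721.

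Neither Egr1 nor Nr4a1 passed without the 18-month CYP19A1 mouse with number 1 (-0.95, adjusted p = 0.11, and 1.35, 0.059) or without the untreated 20-month mouse with number 3 (-0.99, 0.13, and 1.17, 0.12). Egr1 also missed without the untreated mouse with number 2 (-1.11, adjusted p = 0.055). Skeletal muscle markers moved between these groups too, and 1 of 12 passed. Their summed level was 22.9 to 7322 TPM at 18 months and 19827 to 33826 TPM at 20 months. All 9 T and NK cell markers fell, from summed levels of 42.4 to 100.4 TPM to 9.64 to 21.0 TPM, and their part was not tested. With muscle and luminal scores as covariates Nr4a1 differed by 0.40 (adjusted p = 0.35) and Egr1 by -1.08 (0.076). All 3 younger mice belong to 1 library-number set and 2 of the 3 older ones to another, and with the set as a factor the differences were 1.34 and -1.02 (adjusted p = 0.53 for both), where 0 of all genes tested passed. Related genes that passed all fell: Jund, the constitutive AP-1 partner (-0.69 ± 0.18, adjusted p = 0.026), 1 of 10 AP-1 relatives tested, and 3 of 20 early feedback and effector genes. These were Nfkbia, the NF-κB inhibitor (-1.17 ± 0.36, adjusted p = 0.044), Rhob, an inducible small GTPase (-0.60 ± 0.17, 0.034), and Btg2, an antiproliferative factor (-0.62 ± 0.19, 0.049).

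In the Esr1 line none of the 10 passed between 18 and 20 months, where 0.00517% of all genes tested passed. Fos (-1.04 ± 0.34), Zfp36 (-0.53 ± 0.18) and Egr1 (-0.69 ± 0.27) had unadjusted p of 0.0067, 0.0093 and 0.020, each with an adjusted p of 0.73. These were the 3 of 10 genes without overlap, against 5.27% of all genes tested. Nr4a1 stood at 5.70 ± 2.95 and 5.03 ± 1.42 TPM. No related gene passed, and the smallest p among them were those of Ccn1, a matrix protein induced by serum and stretch (-1.04 ± 0.27, adjusted p = 0.73), Btg2 (-0.66 ± 0.19, 0.73) and Klf6 (-0.70 ± 0.22, 0.73). The interaction of age and line passed for none of the 10, and 0.00517% of all genes tested passed. Its smallest p was again that of Nr4a1 (1.38 ± 0.42, unadjusted p = 0.0034, adjusted p = 0.44).

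Because the age comparisons within a line rest on 3 against 3 mice, 2 pooled comparisons were added after the data were seen, and they share all their mice with those above. Untreated and averaged over the lines, Egr1 (fell by 0.88 ± 0.19, adjusted p = 0.035) and Zfp36 (fell by 0.46 ± 0.13, adjusted p = 0.049) passed, where 4.21% of all genes tested did. The median gene differed by -0.20, and with median-ratio scaling Zfp36 was at -0.26 (adjusted p = 0.20), with Egr1 at -0.68 (0.050) and Nr4a1 now past the threshold at 0.79 (0.026). Zfp36 did not pass when any of 9 of the 12 libraries was left out, nor Egr1 when any of 4 was. The median-ratio scaling also turned the split of all calls, from 332 higher and 481 lower to 994 higher of 1062. Skeletal muscle markers had a median difference of 3.23, with summed levels of 22.9 to 14040 TPM at 18 months and 6312 to 33826 TPM at 20 months, though 0 of 12 passed, and 2 of 9 T and NK cell markers were lower. With muscle and luminal scores as covariates Egr1 differed by -0.90 (adjusted p = 0.058) and Zfp36 by -0.32 (0.22), and with the library-number set as a factor by -0.91 (0.27) and -0.28 (0.66), where 2 of all genes tested passed. Related genes that passed were all lower: Jund (-0.47 ± 0.13, adjusted p = 0.044), Klf6 (-0.59 ± 0.16, 0.044), Btg2 (-0.64 ± 0.14, 0.035), Rhob (-0.52 ± 0.12, 0.035) and Trib1, a pseudokinase (-0.45 ± 0.12, 0.046).

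With all 6 groups at 20 months against both at 18 months, Egr1 and Ier2 fell and Nr4a1 rose, where 36.8% of all genes tested passed (1182 higher and 5935 lower). Egr1 had a median of 7.73 TPM in the 6 younger mice and 3.68 TPM in the 18 older ones (fell by 0.93 ± 0.16, adjusted p = 0.00040). Ier2 had medians of 7.47 and 3.97 TPM (fell by 0.64 ± 0.13, adjusted p = 0.0015). Nr4a1 had medians of 4.64 and 11.4 TPM (1.03 ± 0.17, adjusted p = 0.00034), and all 6 younger mice lay below the median of the older ones. These 3 passed without any single library and with median-ratio scaling (-0.73, -0.44 and 1.22), which also added Jun and Klf4 (0.29 and 0.46, adjusted p = 0.0053 and 0.0023) and gave 2534 higher of 4829 calls over all genes. A count of 3 in 10 is near the share of all genes. The older groups differ from the younger in more than age: all had 8 months of transgene induction against 6, and 12 of 18 mice carried a drug. In the untreated Esr1 mice alone, Nr4a1 and Ier2 differed little between 18 and 20 months (-0.08 ± 0.29 and -0.03 ± 0.23). All 12 skeletal muscle markers were higher at 20 months, 6 of 11 luminal, 6 of 8 basal epithelial and all 9 T and NK cell markers lower. With muscle and luminal scores as covariates the differences were -0.93 for Egr1 (adjusted p = 0.080), -0.42 for Ier2 (0.19) and 0.15 for Nr4a1 (0.72). All 6 younger mice and only 2 of the older ones belong to 1 library-number set, and with the set as a factor the differences were -0.98 (adjusted p = 0.11), -0.67 (0.17) and 1.18 (0.083), where 32 of all genes tested passed.

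Related early genes in this pooled comparison fell more often than they rose, as all genes tested did. Of 20 early feedback and effector genes 11 were lower and 1 higher, with a median difference of -0.36 against -0.19 over all genes tested. The lower ones included the MAP kinase phosphatases Dusp5 (-0.63 ± 0.12, adjusted p = 0.00088), Dusp6 (-0.54 ± 0.13, 0.0030) and Dusp4 (-0.65 ± 0.17, 0.0066), and the relatives of Zfp36, Zfp36l1 (-0.51 ± 0.12, 0.0025) and Zfp36l2 (-0.37 ± 0.10, 0.011). They also included Ier5, Ier5l, Btg2, Nfkbia, Rhob and Trib1, with differences of -0.36 (Rhob) to -0.82 (Nfkbia), and the higher one was Gadd45g, a stress-induced growth arrest gene (0.36 ± 0.14, adjusted p = 0.045). Egr2 (-0.60 ± 0.13, adjusted p = 0.0014) and Egr3 (-0.52 ± 0.11, 0.0018), relatives of Egr1, were lower, and Bhlhe40, a repressor tied to the clock, was higher (0.47 ± 0.13, 0.0074), 3 of 9 other early transcription factors. Jund (-0.48 ± 0.10, adjusted p = 0.0016), Batf2 (-0.45 ± 0.14, 0.015) and Jdp2 (-0.34 ± 0.12, 0.033) were lower among 10 AP-1 relatives. Of 14 upstream regulators Creb1, which encodes CREB, was lower (-0.37 ± 0.10, adjusted p = 0.0094). Of 11 heat shock genes Dnaja1, Dnajb1, Hsp90aa1 and Hspe1 were lower (-0.29 for Hspe1 to -0.75 for Hsp90aa1) and Hspb1 and Bag3, a co-chaperone abundant in muscle, were higher (0.32 and 0.42).

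**Figure D3:**
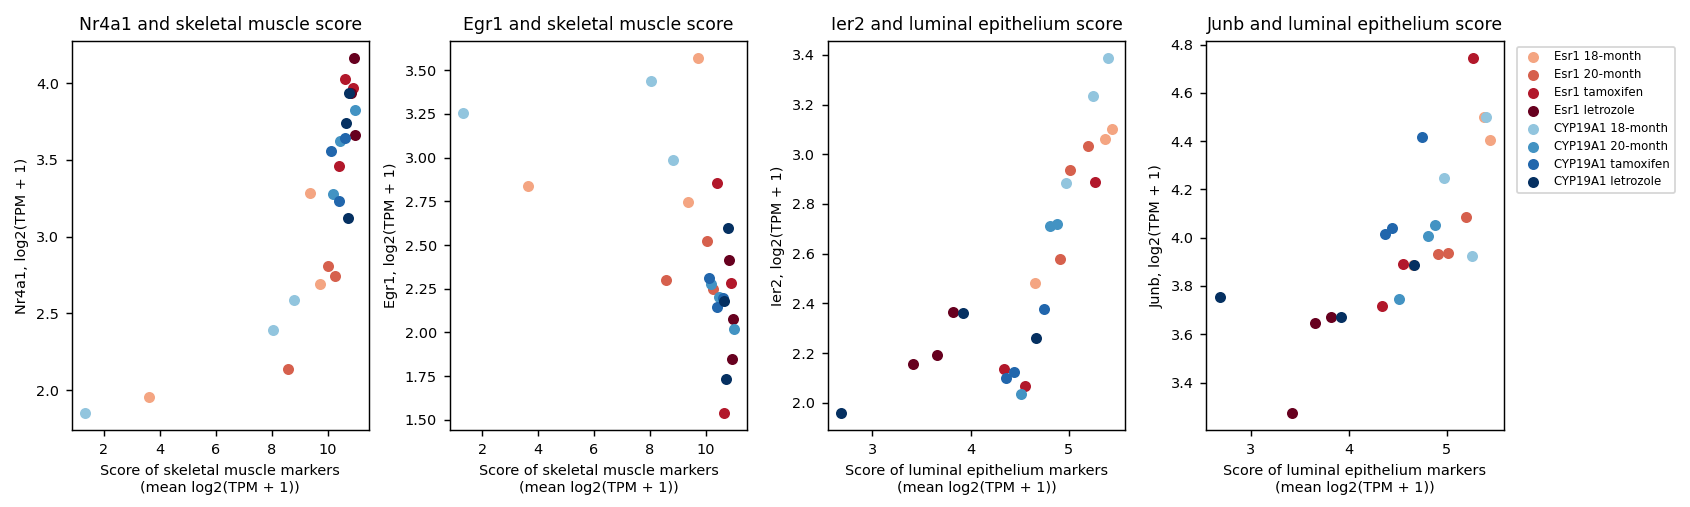
Level of a gene (vertical axis, log2(TPM + 1)) against the score of a marker list (horizontal axis, mean log2(TPM + 1)) in 24 libraries, coloured by group. Nr4a1 is higher where the muscle score is higher (r = 0.78) and Ier2 and Junb are higher where the luminal score is higher (r = 0.79 and 0.75). Egr1 is high in the 18-month mice, whose muscle scores run from 1.32 to 9.71. Most 20-month mice lie above those scores (8.58 to 10.99), and over all libraries Egr1 has r = -0.56 with the muscle score.

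Over the 24 libraries the genes were set against the muscle score and against the luminal score, with two-sided permutation tests adjusted over the 10 genes of a score. The permutations moved libraries freely across the groups, so differences between groups enter these p, and values within groups are given beside them without a test. Both tests passed for 6 of the 10 genes against the luminal score (Junb, Egr1, Ier2, Nr4a1, Dusp1 and Klf4) and for 2 against the muscle score (Nr4a1 and Egr1). These tests were run for the 10 genes only, so no share over all genes stands beside these counts, and other genes may follow the scores as closely. Whether a gene followed 1 score more closely than the other was not tested. Nr4a1 rose with the muscle score (Pearson's r = 0.78, permutation p = 1e-05, adjusted 0.00010; Spearman's rho = 0.87, permutation p = 1e-05, adjusted 3.3e-05), where 1e-05 is the smallest p that 100000 permutations can give. Leaving out the 2 libraries farthest from the median gave r = 0.84, deviations from group means r = 0.68, and the 18 libraries at 20 months r = 0.84 (permutation p = 8e-05, adjusted over 4 relations 0.00032). Without the 2 farthest of those 18 libraries r was 0.65. Nr4a1 also fell with the luminal score (r = -0.62, adjusted permutation p = 0.0034; rho = -0.73, adjusted permutation p = 0.00032), with r = -0.20 within groups. Ier2 rose with the luminal score (r = 0.79, adjusted permutation p = 5e-05; rho = 0.88, adjusted permutation p = 5e-05), with r = 0.81 without the 2 farthest libraries, 0.71 within groups and 0.69 at 20 months (adjusted permutation p = 0.0028). Junb did so too (r = 0.75, adjusted permutation p = 5e-05; rho = 0.82, adjusted permutation p = 5e-05), with r = 0.77, 0.60 and 0.69 in the same order. By rank both also fell with the muscle score: rho was -0.80 for Ier2 (adjusted permutation p = 3.3e-05; r = -0.39, adjusted permutation p = 0.10) and -0.68 for Junb (adjusted permutation p = 0.00066; r = -0.26, adjusted permutation p = 0.27). Egr1 rose with the luminal score (r = 0.50, adjusted permutation p = 0.026; rho = 0.67, adjusted permutation p = 0.00092), while Dusp1 and Klf4 fell with it (r = -0.50 and -0.52, adjusted permutation p = 0.026 for both; rho = -0.53 and -0.75, adjusted permutation p = 0.015 and 0.00013). Within groups, r with the luminal score was only 0.07 for Egr1, -0.29 for Dusp1 and -0.04 for Klf4. Egr1 fell with the muscle score over all libraries (r = -0.56, adjusted permutation p = 0.029; rho = -0.72, adjusted permutation p = 0.00032), but r was 0.07 within groups and -0.26 at 20 months (permutation p = 0.27). The points share their libraries, and TPM values are shares of 1 total.

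Between the genes themselves there was no single common rise and fall. The 45 pairs had a median r of 0.19, from -0.68 to 0.82, and 29 were positive. Both permutation tests, which again disregarded the groups, passed in 9 pairs after adjustment over the 45. Pairs of other genes were not tested, so no share stands beside that count. Jun and Klf4 were the closest (r = 0.82, adjusted permutation p = 0.00075; rho = 0.67, adjusted permutation p = 0.0047), with r = 0.59 when the 2 farthest libraries were left out. Nr4a1 and Klf4 were also close (r = 0.72, adjusted permutation p = 0.00075; rho = 0.75, adjusted permutation p = 0.0018; r = 0.50 within groups). Egr1, Ier2 and Junb formed the other group: r was 0.74 for Egr1 and Ier2, 0.64 for Junb and Egr1, and 0.64 for Junb and Ier2, with adjusted permutation p of 0.00075 to 0.0055 and rho of 0.70, 0.61 and 0.62. Within groups the same 3 values were 0.45, 0.64 and 0.75. Across these groups the sign turned: Ier2 and Nr4a1 had r = -0.68 (adjusted permutation p = 0.0034; rho = -0.72, adjusted permutation p = 0.0031) but 0.00 within groups, and Egr1 and Nr4a1 had r = -0.63 but -0.07 within groups. Fos and Fosb, induced together in many tissues, had r = 0.48 (adjusted permutation p = 0.044; rho = 0.52, adjusted permutation p = 0.036). Fos and its partner Jun had r = 0.06.

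**Figure D4:**
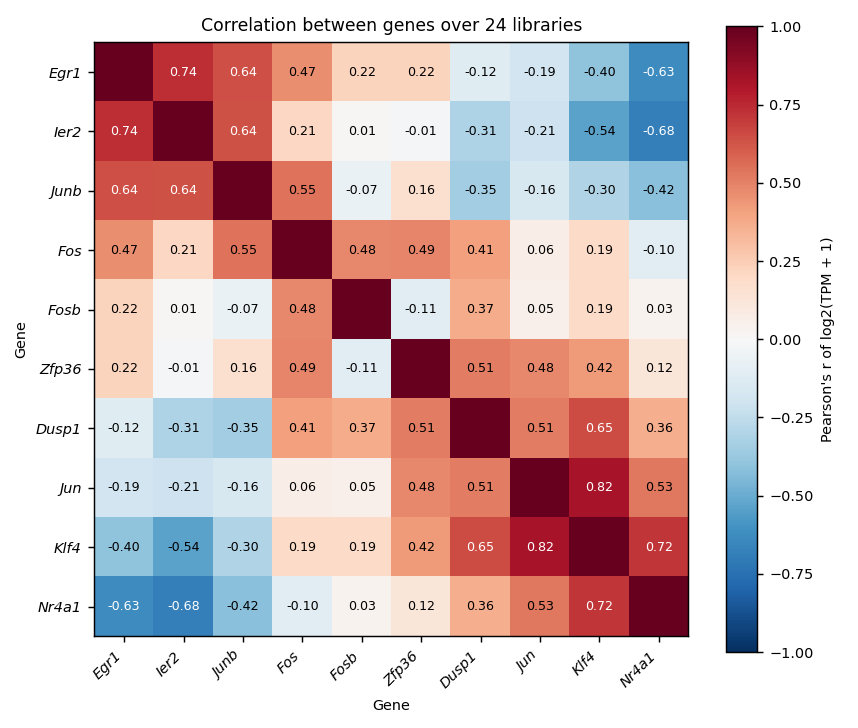
Pearson's r of log2(TPM + 1) for each pair of the 10 genes (both axes) over 24 libraries. Egr1, Ier2 and Junb are red with one another (0.64 to 0.74), as are Jun, Klf4 and Nr4a1 (0.53 to 0.82), and Nr4a1 is blue against Egr1 and Ier2 (-0.63 and -0.68).

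The genes outside the set most like the mean of its 10 members over the 24 libraries were Mat2a (r = 0.80), which makes S-adenosylmethionine, then Simc1, Tent5a, Lmna, the nuclear lamin A gene, Itga5, an integrin, Necab3, Itprid2, Akirin2, Zyx, the focal adhesion protein zyxin, and Mical3 (r = 0.73). This is a description of the 10 highest values, and the members and these genes share the same libraries and totals. Leaving out the 2 farthest libraries lowered r to 0.63 for Mat2a and 0.39 for Mical3.

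**Figure D5:**
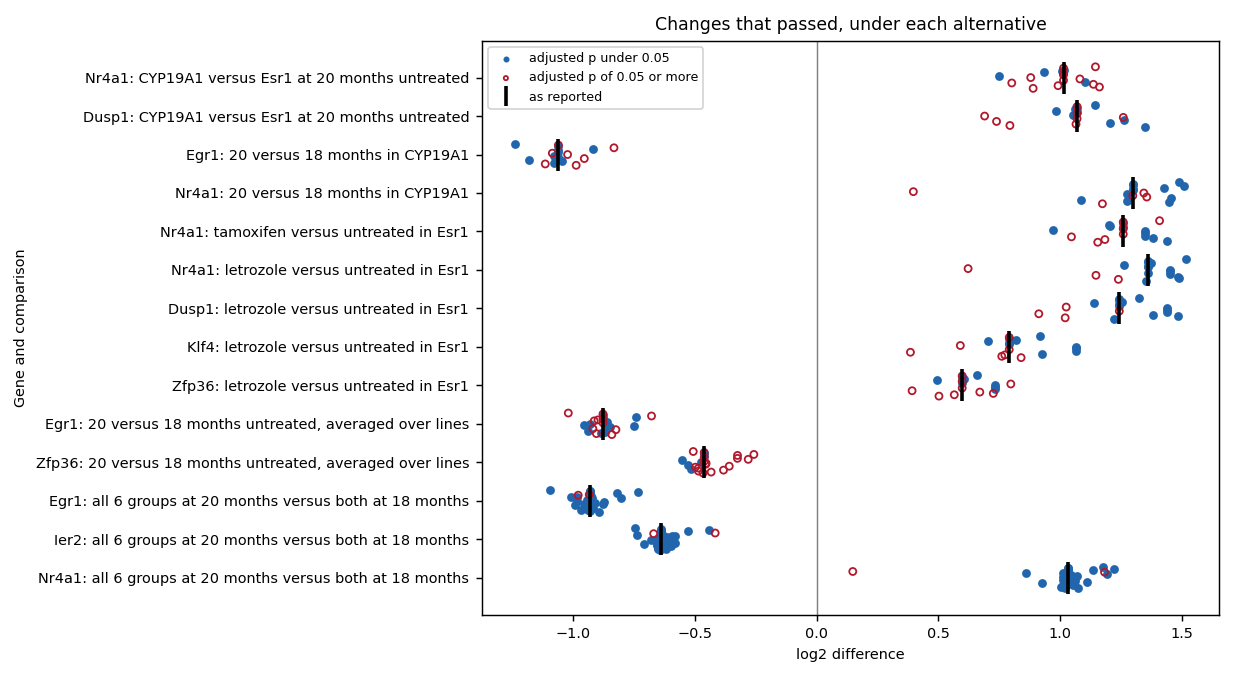
Log2 difference (horizontal axis) of each of the 14 gene and comparison pairs that passed (vertical axis), as reported (black bar) and under each alternative (points, filled where the adjusted p stayed under 0.05). No point crosses 0, and the 3 pairs at the foot, from all 6 groups at 20 months, stayed past the threshold in 32 of 34 alternatives each.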

How the data were processed

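The deposited table held 55487 genes in TPM for 24 libraries, made by the authors with RSEM 1.3.1, STAR 2.7.9a, Trim Galore 0.6.5 and FastQC 0.11.9 on mm10, per the submitters' processing notes. No source used here gives the annotation or each tool's role. Libraries were stranded, ribosomal RNA-depleted and random-primed, per the labels' protocols. TPM is a share of a total, so abundant RNAs shift every other value.

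Values were fitted as log2(TPM + 1) with limma 3.58.1 (R 4.3.3; trend and robust) over the 19325 genes that reached 1 TPM in 3 or more libraries, in 1 model of 8 groups without a covariate, for 16 comparisons and 2 added later. The procedure was tested on simulated data with known changes, drawn independently for each gene and library. These held no library that stands apart and no shift of cell types, so the test does not bear on either. Alternatives were another pseudocount, filter, scaling or variance model, a replicate block, marker scores, library-number sets, only the groups compared, and each library left out. Correlations used 100000 permutations of the libraries, regardless of group. All 10 genes are named; related genes are named where they passed beside a member, and otherwise up to 4 with the smallest p. The members and lists were chosen with earlier results of these data known.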

Additional observations from a re-analysis of the deposited data

How the results depend on the processing

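No difference that passed changed sign under any alternative run. These differences were picked for passing, and the alternatives reuse mostly the same libraries, so a sign that held adds little. Of 301 such values, over 14 pairs of a gene and a comparison, 205 stayed past the threshold. The shares were unequal: 32 of 34 for each of the 3 pairs from all 20-month groups, a comparison added after the data were seen. The lowest were 5 of 17 for Nr4a1 between the lines at 20 months untreated and 6 of 23 for Zfp36 in untreated age over both lines. Counts of genes of the set that passed follow. Counts over all genes tested are given after them for some of the same settings, where they often moved with the set. For the other settings, among them each library left out, no count over all genes is given in this section. There a change particular to the set cannot be told from a change of the whole comparison. For the lines at 20 months untreated, 2 became 1 with a pseudocount of 0.1 or without trend and robust settings, 4 with median-ratio scaling, and 0 without a filter, with library-number sets, without both first replicates or with only those groups fitted; leaving out a library gave 0 to 2. For age in CYP19A1, 2 became 1 without a filter or with only those groups, and 0 with marker scores or library-number sets; leaving out a library gave 0 to 2. For tamoxifen in Esr1, 1 became 0 with a pseudocount of 0.1, without a filter or with only those groups, and 2 with median-ratio scaling, rescaling without the most abundant genes, library-number sets or both first replicates left out; leaving out a library gave 0 to 3. For letrozole in Esr1, 4 became 2 without a filter, 0 with marker scores and 1 with only those groups; leaving out a library gave 0 to 6. For untreated age over both lines, 2 became 1 with median-ratio scaling and 0 with a pseudocount of 0.1, no filter, marker scores, library-number sets or only those groups; leaving out a library gave 0 to 2. For all 20-month groups, 3 became 5 with median-ratio scaling and 0 with marker scores or library-number sets; leaving out a library gave 3 to 5. For the lines under letrozole, 0 became 1 (Fosb) with marker scores. Over all genes tested, the 1019 that passed for the lines at 20 months untreated became 2854 with median-ratio scaling, 94 with library-number sets and 428 with only those groups. The 1827 for age in CYP19A1 became 0 with library-number sets and 163 with only those groups, though 2008 passed with marker scores. The 299 for tamoxifen in Esr1 became 190 with a pseudocount of 0.1, 237 without a filter, 6 with only those groups, 1881 with median-ratio scaling, 1668 with rescaling and 828 with library-number sets or without both first replicates. The 1672 for letrozole in Esr1 became 0 with marker scores, 1198 without a filter, 824 with only those groups and 3108 (1991 higher) without both first replicates. The 813 for untreated age over both lines became 0 with a pseudocount of 0.1, 46 without a filter, 2 with library-number sets and 3 with only those groups, and 855 with marker scores. The 7117 for all 20-month groups became 4829 with median-ratio scaling, 1206 with marker scores and 32 with library-number sets. In the lines under letrozole, leaving out a library gave 0 to 1 of the set, as for the lines on average and for tamoxifen against letrozole in CYP19A1. Apart from these constructions the causes were not tested.

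Replicate numbers pair no mice, since each has its own animal number, and deviations from group means correlated on average 0.00 in 84 same-number and 0.00 in 168 other pairs. With a replicate block, the counts were 0 for the lines at 20 months untreated, 0 for tamoxifen in Esr1 and 0 for untreated age over both lines, with 4 still for letrozole in Esr1. Counts over all genes with that block are not given here, so these values do not show a loss particular to the set. Without read counts, depth sets an unknown limit on the precision of low genes such as Fosb.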
